A study of Mus musculus with 4 samples.

Results

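The cytosolic ribosomal protein genes were followed in single hematopoietic stem and progenitor cells (HSPCs) of young and aged mice. Members were all gene symbols built as Rps or Rpl with a number (optionally ending in a, l or x), or as Rplp0 to Rplp2 or Rpsa, that had at least 1 UMI (unique molecular identifier, 1 captured transcript) in each pool. Of 28692 listed genes 81 met this rule, 31 named for the small and 50 for the large ribosomal subunit. Ribosomal proteins listed under other names, such as Fau and Gnb2l1, are not among them.

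The cells were Lin-, Sca1+, cKit+ (LSK) and Flt3- and were sorted from the bone marrow of C57BL/6-CD45.2 male mice, with droplet-based 3' sequencing of each pool. There were 4 pools of 2 or 3 mice each, young A and young B at 2 to 3 months and aged A and aged B at 17 to 18 months. By the study's methods young A and aged B held 2 mice each, and young B and aged A 3 each. The letter is the facility that captured and sequenced the pool, called platform A and platform B here. By the study's methods it is also the batch in which the cells were collected, so facility and batch cannot be told apart. No mouse was treated or mutated, and mice within a pool cannot be told apart. The pool titles set the groups, because the free-text notes of young B and aged A name the other age.

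Ribosomal proteins assemble with ribosomal RNA into the small subunit, which decodes the mRNA, and the large subunit, which joins amino acids. Their mRNAs are among the most abundant of a cell, and many begin with a C followed by pyrimidines, the 5' terminal oligopyrimidine (TOP) start through which mTOR signalling controls their translation. Hematopoietic cells are known for their sensitivity to ribosomal protein dosage: loss of 1 copy of RPS19 and several others causes Diamond-Blackfan anaemia in humans, and hematopoietic stem cells are known for a low rate of protein synthesis.

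RefSeq promoters (GRCm38.p6) were matched for 60 members by symbol. A TOP start was defined as a C followed by at least 4 pyrimidines, beginning within 5 bases of the annotated start on the gene's strand, and 28 of the 60 members had one. It was present in 41.7% of their 72 promoters and in 18.3% of all 32851. The following 30-base windows around the start, of members on which later results turn, are given in gene direction with the TOP run in capitals.
Rpl38 (chr11:114668565-114668594, plus strand): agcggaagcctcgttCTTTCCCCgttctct
Rps27 (chr3:90213634-90213663, minus strand): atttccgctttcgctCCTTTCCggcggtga
Rps26 (chr10:128626492-128626521, minus strand): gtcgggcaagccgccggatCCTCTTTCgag
Rps27l (chr9:66946071-66946100, plus strand): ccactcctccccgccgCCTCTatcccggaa
Rps28 (chr17:33824548-33824577, minus strand): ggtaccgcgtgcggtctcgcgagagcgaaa
Rpl41 (chr10:128549154-128549183, minus strand): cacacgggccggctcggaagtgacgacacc
The Rps28 and Rpl41 windows held no TOP run at the annotated start. In the 300-base promoters, searched on both strands, CCGGAAG stood in 36.1% of member promoters against 8.86% of all, GGGCGG in 58.3% against 35.7%, AAGATGGC in 9.72% against 2.75%, and TATAAA in 8.33% against 13.6%. These are letters in a window and no measurement of binding.

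Kept cells numbered 5189, 2244, 3328 and 4154 in young A, young B, aged A and aged B, with 16399999 to 36446168 UMIs per pool and medians of 5674 to 6719 UMIs per cell. Pairs of libraries shared 10 to 29 barcodes. The series' design text gives about 45000 reads per cell for young A and aged B and about 130000 for young B and aged A. The number of mice per pool has the same layout, with more mice in young B and aged A. Read depth, pool size and a difference of the age effect between platforms therefore cannot be told apart. The stem and progenitor markers Kit, Ly6a, Cd34 and Ptprc summed to 544 to 636 CPM (UMIs scaled to a pool total of 1000000). The 6 plasma cell markers summed to 1360 CPM in aged A against 128 to 383 in the other pools, and the 5 erythroblast markers to 1063 CPM in young B against 82.1 to 345. The 6 B cell, 5 macrophage and 5 endothelial or stromal markers summed to at most 59.0, 21.8 and 47.5 CPM, with Ms4a1, Adgre1, Cdh5 and Lepr among those at 0 in at least 1 pool.

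Ribosomal protein transcripts made up 28.2% to 36.4% of all captured mRNA, a share that differed more between pools than between the ages. Members took 31.99% of UMIs in young A, 35.55% in young B, 28.20% in aged A and 36.36% in aged B. Aged A was the lowest pool and aged B the highest, so the ages overlapped. The mean was 33.8% ± 2.52 (SD, n = 2) in young and 32.3% ± 5.77 (SD, n = 2) in aged pools, a difference of -1.49 percentage points (exact permutation test, two-sided p = 1, where 2 against 2 pools cannot give less than 0.333). On platform A the aged pool was -3.79 points from the young one, on platform B 0.809 points above it. Aged A, the lowest pool, was also the pool with the highest plasma cell markers, whose part in the result was not tested. Within pools the share of single cells had an SD of 3.72 to 4.19 points, while counting error alone would give 0.584 to 0.615 points.

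**Figure D1:**
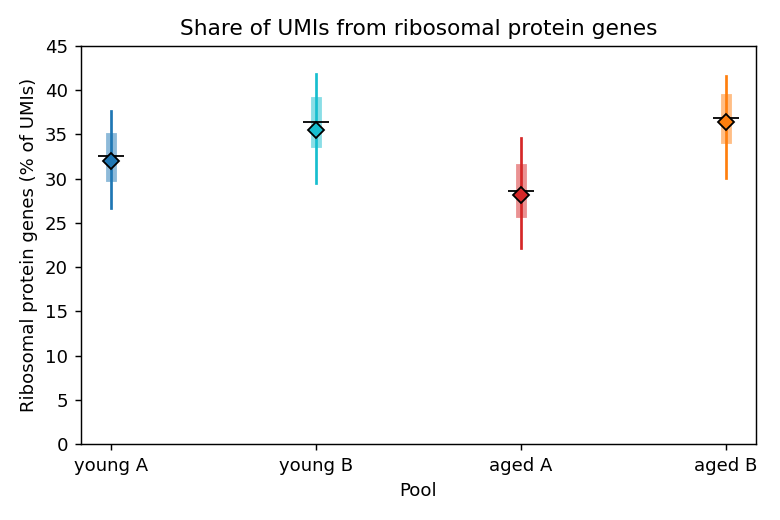
Percent of UMIs from the 81 members (y axis) in each pool (x axis). Diamonds are the pooled share, black dashes the median over cells, thick bars the 25th to 75th percentile of cells and thin bars the 5th to 95th percentile. Aged A has the lowest share (28.20%) and aged B the highest (36.36%).

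The members spanned a wide range of levels. Levels are CPM of 3' tags, which count molecules and are not divided by transcript length. The median member was at 3987 CPM (mean over pools), 68 members were above 1000 CPM and 5 under 100. Among the highest were Rps19, needed to mature the small subunit rRNA (9690 CPM, mean over pools), Rps14 (9596 CPM), Rpl13 (9563 CPM) and Rpl32 (9502 CPM). Rps19 stood at 9388, 9219, 8927 and 11225 CPM in young A, young B, aged A and aged B, with aged B highest.

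The lowest members were Rpl3l (0.390 CPM), the striated-muscle paralog of Rpl3, Rpl39l (1.05 CPM) and Rpl10l (1.90 CPM), paralogs known from the male germ line, then Rps12 (40.2 CPM) and Rpl27 (70.6 CPM). Rpl3l rested on 9, 9, 14 and 3 UMIs in young A, young B, aged A and aged B, and Rpl39l on 38, 30, 4 and 38. Their partners were far more abundant, with Rpl3 at 6156 and Rpl39 at 5019 CPM, while Rpl10 was at 182 CPM. The order was the other way for the last pair, since Rps27l (ENSMUSG00000036781, chr9:66946086-66949516, plus strand), a known p53 target, stood at 507 CPM and Rps27 at 121 CPM.

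Several low levels belonged to genes with near-identical copies, so these levels are uncertain. Every 75-base word in the last 400 transcript bases of Rps12 and Rpl10 was also present in other annotated transcripts, and 87.1% of those of Rpl27 and 98.5% of those of Rps27 were. Among the 10 lowest members the median shared portion was 86.2%, and among the others 46.3%. High members could be shared too, since 87.1% of the words of Rpl13 were. Rpl6l is annotated as a processed pseudogene in GENCODE M21.

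**Figure D2:**
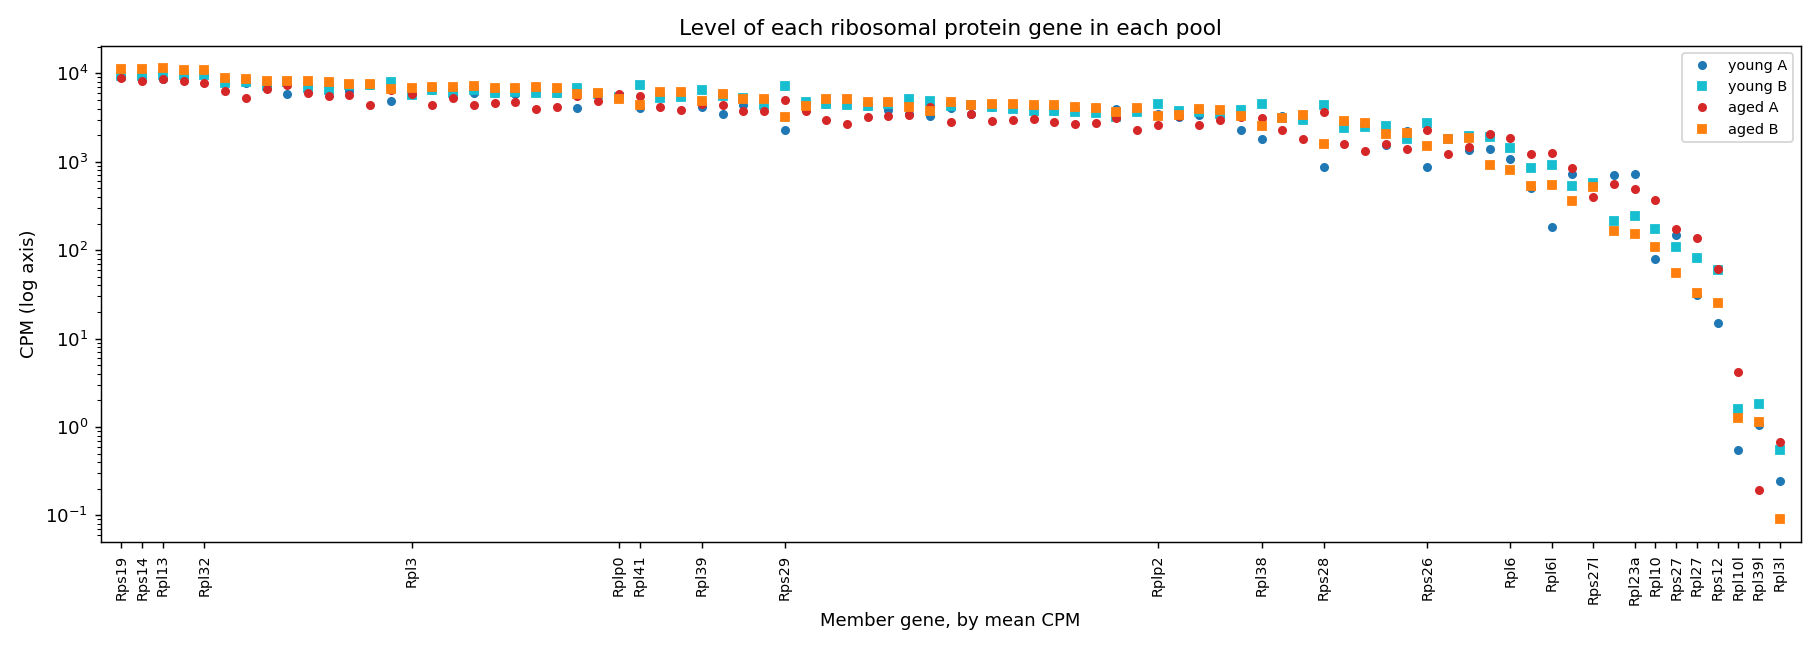
CPM on a log axis (y) of each of the 81 members, ordered by mean CPM (x), with 1 point per pool and some members labelled. The mean is above 1000 CPM for 68 members, and the pools lie far apart for some of them, such as Rps28 (878 to 4409.8 CPM), and for members of lower level, such as Rpl6l (182 to 1248 CPM).

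No member was called different with age. With platform as a block, edgeR called 0 of 81 members at an adjusted p under 0.05, with 1 member at an unadjusted p under 0.05, against 2.03% of all 13555 genes tested (275 genes). DESeq2 also called 0, with 2 members at an unadjusted p under 0.05, against 4.01% of all genes. The fitted log2 fold change was negative for 65 members and positive for 16, with a median of -0.16 against 0.01 over all genes. Fits that left out 1 pool also had no platform block. In them the median over members was 0.03 without young B, 0.23 without aged A, -0.26 without young A and -0.51 without aged B. With all 4 pools and no block it was -0.12, so among the fits without a block single pools set its sign.

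The member with the smallest unadjusted p was Rpl23a, a large subunit protein at the exit tunnel, at 730, 242, 492 and 153 CPM in young A, young B, aged A and aged B. It was lower in the aged pool of each platform, and the platforms were further apart than the ages. Its log2 fold change was -0.67 ± 0.20 (SE, edgeR adjusted p = 0.194). Rpl9 had the same layout of pools (709, 214, 564 and 166 CPM) and a log2 fold change of -0.40 (edgeR adjusted p = 0.428).

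The stalk protein Rplp2, which helps recruit elongation factors, was at 3508, 4460, 2584 and 3299 CPM in the same order of pools. Both aged pools lay below both young pools, and its log2 fold change was -0.49 ± 0.28 (SE, edgeR adjusted p = 0.503). Rps7 and Rps27l were the other members with this separation, 3 of 81 in all, against 13.6% of all genes. No member had both aged pools above both young pools, against 18.1% of all genes.

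The other large negative values were Rpl39l (-1.40), Rpl30 (-0.44), Rps27 (-0.42), Rps24 (-0.40) and Rpl28 (-0.38), all log2 fold changes that were not called. The largest positive values were Rpl10l (1.26), Rpl6l (0.98), Rpl10 (0.71), Rpl27 (0.37), Rps12 (0.35), Rpl15 (0.25), Rps28 (0.23) and Rps26 (0.21), also not called. Of these 16 members (with Rpl23a, Rplp2 and Rpl9) 13 changed sign when 1 pool was left out, in fits that also had no platform block. Rpl23a and Rpl9 were among the 13, although both were lower in the aged pool of each platform. Among members with known special roles, the log2 fold change was 0.05 for Rps19, -0.01 for Rps14, -0.25 for Rpl5 and -0.12 for Rpl11, which both bind Mdm2, -0.34 for Rpl22, -0.07 for Rpl38, -0.06 for the stalk base Rplp0 and -0.25 for Rpsa, also known as the laminin receptor. None of these 8 was called.

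The age difference of a member usually pointed in opposite ways on the platforms. On the log2(CPM + 1) scale, 71 of 81 members went in opposite directions, against 39.6% of all genes. Of these, 46 were lower in aged cells on platform A and higher on platform B, and 25 were the reverse. The median over members was -0.24 on platform A and 0.08 on platform B, against 0.12 and -0.0049 over all genes.

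After these values were seen, the pools were also ordered by read depth. A member separated by depth must go in opposite directions on the platforms, so the counts by depth are no separate pattern. In 15 members both deeply read pools, young B and aged A, lay above both others, against 9.99% of all genes. In 33 members both lay below, against 5.19% of all genes. Among the 33 the young pools could be close, with aged A the low pool. Rps24 was at 7291, 7287, 4329 and 7575 CPM and Rps14 at 9444, 9334, 8263 and 11343 CPM in young A, young B, aged A and aged B. The young pools were further apart for Rpl4 (3991, 3210, 3145 and 3647 CPM). Rps28 (ENSMUSG00000067288, chr17:33819027-33824562, minus strand), a small subunit protein at the mRNA exit, was at 878, 4409.8, 3637 and 1579.7 CPM in young A, young B, aged A and aged B. Its deeply read pools did not overlap the others, and the log2 fold change with depth was 1.63 ± 0.53 (SE).

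Rps29, a zinc-binding small subunit protein, was at 2269.8, 7214, 5038 and 3248 CPM in the same order. Rps26 was at 878, 2728, 2284 and 1512 CPM, and Rpl38, known for tissue-selective translation of Hox mRNAs, at 1787, 4553, 3120.1 and 2548 CPM. Rpl6l was at 182, 914, 1248 and 553 CPM, and Rpl6 at 1070.2, 1437, 1835 and 799.9 CPM. In each of these the 2 deeply read pools were the highest.

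The remaining members of the 15 were Rpl3l, Rpl27, Rpl10l, Rps12, Rpl10, Rpl15, Rpl35, Rpl41 and Rpl36. Together the 15 took 1.65%, 3.65%, 3.07% and 2.00% of UMIs in young A, young B, aged A and aged B, and the other 66 members took 30.3%, 31.9%, 25.1% and 34.4%. The median coding length was 127.5 residues in 14 of the 15 and 156 in the 66, and across 80 members Spearman's rho between coding length and the depth log2 fold change was -0.25, a description over genes of the same 4 libraries. With 2 against 2 pools edgeR called 0 of 81 members for read depth and 0% of all genes, with 5 members at an unadjusted p under 0.05, and DESeq2 called 0 members and 0.0369% of all genes, with 8 members at an unadjusted p under 0.05.

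**Figure D3:**
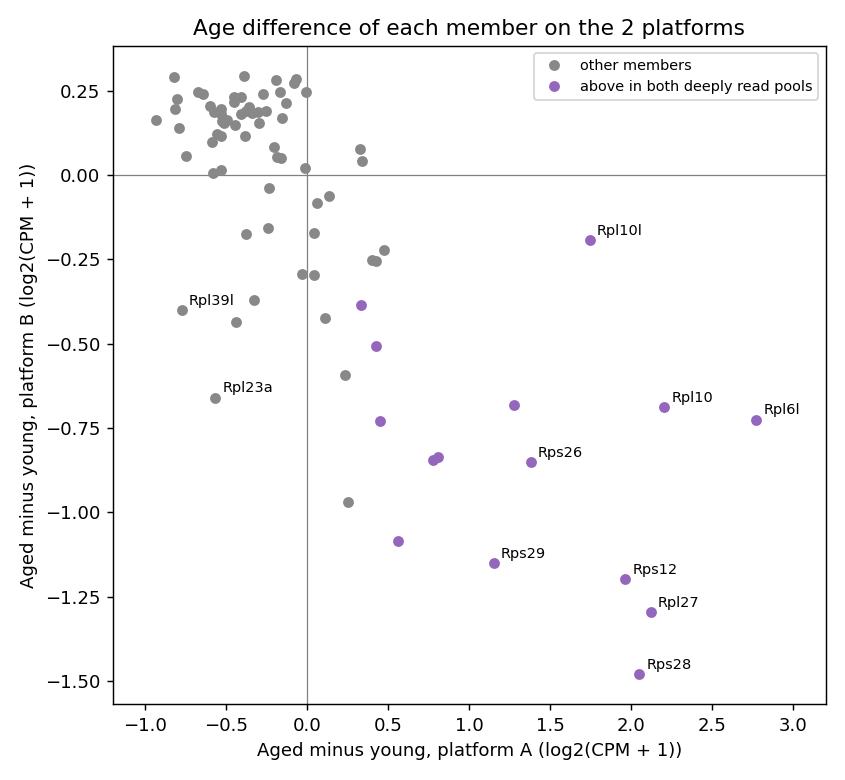
Aged minus young difference in log2(CPM + 1) on platform A (x axis) and platform B (y axis), 1 point per member, with the 15 members that were higher in both deeply read pools in purple. Purple points can lie only in the lower right, because of how they were chosen, and most grey points lie in the upper left. In all, 71 of 81 members differ in direction.

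Both subunits had the same order of pools. Small subunit members took 14.5%, 16.0%, 12.3% and 16.7% of UMIs in young A, young B, aged A and aged B, and large subunit members 17.5%, 19.6%, 15.9% and 19.7%. The ratio of small to large subunit UMIs was 0.830 in young A, 0.818 in young B, 0.775 in aged A and 0.849 in aged B. The aged pools were the lowest and the highest, and the difference was -0.0125 (exact permutation test, two-sided p = 1).

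Cells were then compared by what they expressed. Each cell was thinned to 3000 UMIs, which left 14685 cells (50, 176 and 4 shallower cells of young B, aged A and aged B were left out, and 0 of young A), and was marked for a class when at least 3 genes of that class's marker list had a UMI. A cell can carry several marks, and marked cells were compared with the other cells of the same pool, so the comparisons below share cells.

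Mitotic-marked cells, with transcripts such as Top2a, Ccnb1 and Cenpf, had the lower member share in every pool. Their share was 28.4%, 30.8%, 23.8% and 30.2% in young A, young B, aged A and aged B, and the difference from the other cells was -4.47, -5.76, -4.90 and -6.75 percentage points (mean -5.47 ± 1.01, SD, n = 4 pools, exact sign-flip test, two-sided p = 0.13, the smallest 4 pools allow). They were 1264 cells, of which 233 were at the lower limit of 3 marker genes. Before thinning these cells held more member UMIs per cell, with medians of 2440 to 3693 against 1639 to 2462 in other cells, beside total UMIs of 9766 to 12333 against 5730 to 6531.

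Member by member, edgeR with the pool as a block called 67 of 78 tested members lower in mitotic-marked cells, against 16% of all genes, and 2 higher, against 16.8%. The median log2 fold change was -0.28 over members and -0.03 over all genes. The lower members were 26 of 31 of the small and 41 of 47 of the large subunit. Among 19 members known as Diamond-Blackfan anaemia genes, 18 were called lower, beside the 67 of 78 over all tested members.

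Rps14, which lies in the human 5q- syndrome region, was at 7551, 6911, 5639 and 8211 CPM in mitotic-marked cells against 10146, 10054, 8566 and 11714 CPM in other cells of young A, young B, aged A and aged B. It was lower in all 4 pools, with a log2 fold change of -0.54 ± 0.05 (SE, edgeR adjusted p = 5.54e-10). Rps27 fell the most (-0.74 ± 0.10, edgeR adjusted p = 9.35e-07), followed by Rpl10 (-0.57 ± 0.09, edgeR adjusted p = 1.07e-05). Both have near-identical copies, as given above.

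The members that rose in mitotic-marked cells were Rps27l (0.34 ± 0.07, edgeR adjusted p = 0.000338) and Rpl41, the shortest member with 25 residues (0.13 ± 0.05, edgeR adjusted p = 0.0478). Rps27l was at 553, 591, 587 and 675 CPM in mitotic-marked and at 483, 535, 381 and 471 CPM in other cells of the 4 pools. It was higher in each, while its partner Rps27 was lower in each. Rpl39, Rpl4, Rpsa and Rps2 were among the 9 tested members that were not called.

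S-phase-marked cells, with transcripts such as Mcm2 to Mcm7 and Pcna, had member shares -1.90, -2.81, -2.25 and -3.57 percentage points from other cells (mean -2.63 ± 0.727, SD, n = 4 pools, exact sign-flip test, two-sided p = 0.13). Of 78 members 33 were called lower, against 16.3% of all genes, and 6 higher, against 20.9%. With library sizes taken over non-member genes, without the scaling factors of the main fit, 62 were lower, against 23.8% of all genes. The 2 higher stood against 16%. The median log2 fold change moved from -0.08 to -0.16 over members and from -0.01 to -0.10 over all genes. Without young B, aged A or aged B 15 of 79, 22 of 78 and 21 of 78 members were called in either direction. This was below the 30.9%, 31.5% and 31.6% of all genes. Of these members 14, 20 and 19 were lower, a share above the 14.54%, 13.17% and 14.03% of all genes called lower. The 1, 2 and 2 higher stood against 16.38%, 18.34% and 17.53%. Without young A 42 of 78 were lower, against 12.82%, and 3 higher, against 17.14%. The largest falls were in Rps27 (-0.51), Rps14 (-0.28) and Rps9 (-0.23), and the members that rose were Rps27l (0.48), Rpl41 (0.16), Rpsa (0.11), Rps2 (0.10), Rpl28 and Rpl29.

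HSC-marked cells, with transcripts such as Procr, Mecom and Hlf, had a higher share than the other cells of every pool. The difference was 1.21, 1.54, 0.932 and 1.40 percentage points in young A, young B, aged A and aged B (mean 1.27 ± 0.263, SD, n = 4 pools, exact sign-flip test, two-sided p = 0.13). They numbered 6663 cells, with 3338 at the lower limit of 3 marker genes. Their median total was 5326 to 6410 UMIs per cell against 6184 to 7045 in other cells, and their median member UMIs per cell were lower before thinning, 1606 to 2439 against 1766 to 2613. The higher share was not particular to HSC-marked cells. Cells without a lineage, S-phase or mitotic mark, HSC-marked or not, differed from all others by 2.09, 3.09, 1.32 and 3.65 points. Their share was 33.34%, 37.22%, 28.91% and 37.29%, against 33.12%, 37.14%, 28.80% and 37.11% in HSC-marked cells.

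In HSC-marked cells 28 of 79 members were called higher, against 13.9% of all genes, and 8 lower, against 15.6%. With library sizes over non-member genes, again without scaling factors, 55 were higher, against 18.1% of all genes, and 3 lower, against 12.9%. In that fit the median log2 fold change was 0.08 over members and 0.07 over all genes. Without young A 18 of 79 members were called in either direction, near the 21.7% of all genes. Without thinning 13 of 80 were called in either direction, against 36.8% of all genes. The changes were small, with a median of 0.03 over members, as over all genes. Rps27 (0.17 ± 0.05, edgeR adjusted p = 0.0137), Rps14 (0.15 ± 0.02, edgeR adjusted p = 1.32e-08) and Rps21 (0.14 ± 0.03, edgeR adjusted p = 5.94e-05) rose the most.

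Rps27l fell the most in HSC-marked cells, from 526, 588, 462 and 539 CPM in other cells to 425, 441, 349 and 438 CPM in young A, young B, aged A and aged B. The groups differed in the same direction in every pool (log2 fold change -0.37 ± 0.04, edgeR adjusted p = 9.34e-10). The other members that fell were Rpl29 (-0.11), Rpl41 (-0.11), Rps2 (-0.08), Rpsa (-0.08), Rpl22 (-0.07), Rpl28 and Rpl39.

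**Figure D4:**
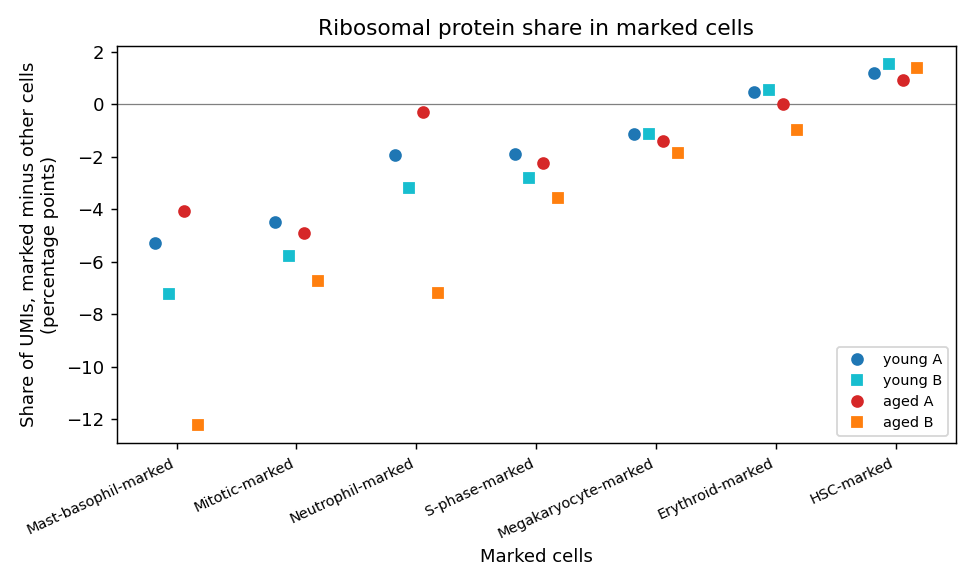
Member share of UMIs in marked minus other cells, in percentage points (y axis), for each kind of marked cell (x axis), 1 point per pool, after thinning to 3000 UMIs. Mitotic-marked cells lie between -4.47 and -6.75 and HSC-marked cells between 0.932 and 1.54 in the 4 pools.

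Lineage-marked cells varied. Mast-basophil-marked cells, with the protease Cpa3 and the IgE receptor gene Ms4a2 among their markers, differed by -5.27, -7.23, -4.07 and -12.24 percentage points, the last from 29 cells. Of 78 members 9 were called lower, against 7.26% of all genes. With library sizes over non-member genes, without scaling factors, 64 were lower, against 16.8%. The median log2 fold change then moved from -0.26 to -0.49 over members and from -0.14 to -0.39 over all genes. Without young B 0 and without aged B 5 of 78 members were called, against 10.6% and 13.6% of all genes in either direction. The 5 were all lower, against 5.83% of all genes lower. Rplp1 (-0.56), Rpl3 (-0.51) and Rps4x (-0.50) fell the most.

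Megakaryocyte-marked cells, with transcripts such as Pf4 and Itga2b, differed by -1.13, -1.14, -1.40 and -1.86 percentage points, with 25 such cells in young B. Of 78 members 30 were called lower, against 4.1% of all genes, led by Rps9 (-0.32), Rps14 (-0.29) and Rpl37 (-0.29), and Rps27l was called higher (0.31), as were 3.38% of all genes. Without aged A 5 and without aged B 1 of 78 members was called in either direction, against 4.02% and 3.53% of all genes, and DESeq2 called 11, against 3.55%.

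Neutrophil-marked cells, with granule genes such as Mpo and Elane, differed by -1.94, -3.17, -0.299 and -7.19 percentage points, and Rps27l was the 1 member called (0.44, higher). With library sizes over non-member genes 5 members were called, all lower, against 6.21% of all genes, and without young B 0 were called, against 6.19% of all genes in either direction. Erythroid-marked cells, with Klf1 and Gata1, differed by 0.487, 0.547, 0.0280 and -0.984 percentage points, the last in aged B, and Rps27l was again the 1 member called (0.28, higher). The background was 6.36% of all genes higher in neutrophil-marked and 3.78% in erythroid-marked cells. Lymphoid-marked cells were 31, 14, 9 and 2 in the 4 pools, too few for a fit, with member shares of 29.0%, 34.2%, 25.2% and 24.8%.

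**Figure D5:**
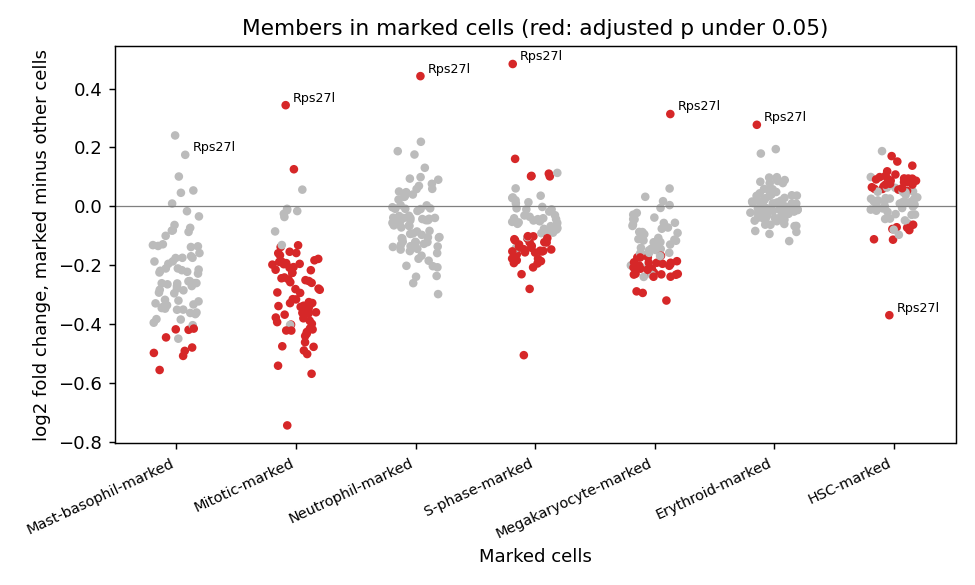
log2 fold change of each tested member in marked against other cells (y axis) for each kind of marked cell (x axis), 1 point per member, red where the edgeR adjusted p is under 0.05. Members lie mostly below 0 in mitotic-marked cells (67 called lower), while Rps27l lies above the bulk in all but HSC-marked cells.

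Age was last compared within kinds of cells, since HSC-marked cells made up 34.3% and 32.6% of young and 61.9% and 53.3% of aged thinned cells. Within HSC-marked cells the member share was 33.1%, 37.1%, 28.8% and 37.1% in young A, young B, aged A and aged B (difference -2.17 percentage points, exact permutation test, two-sided p = 0.667). Unmarked cells were those without a lineage, S-phase or mitotic mark, whether HSC-marked or not. In them the share was 33.3%, 37.2%, 28.9% and 37.3%. Aged A was thus the lowest pool within both kinds, which share cells. In aged B, for example, 2213 cells were HSC-marked and 3202 unmarked, of 4150. In neutrophil-marked cells the share was 30.5%, 33.1%, 28.2% and 29.4% in the same order of pools (difference -3.03 percentage points, exact permutation test, two-sided p = 0.333, the smallest these pools allow), and in mast-basophil-marked cells 27.2%, 29.1%, 24.4% and 24.3% (-3.76 points, the same exact p). In each of these kinds both aged pools lay below both young pools, with 67 neutrophil-marked and 29 mast-basophil-marked cells in aged B. In erythroid-, megakaryocyte-, S-phase- and mitotic-marked cells the difference was -2.67, -2.23, -2.50 and -2.62 points, with overlapping ages (exact permutation test, two-sided p = 0.667 in each). Within each platform the aged pool was the lower one in every marked kind, with -0.0218 points in HSC-marked cells on platform B. This includes the few lymphoid-marked cells, whose aged pools also lay below both young pools. In unmarked cells aged B was 0.0729 points above young B. Members were tested one by one in the HSC-marked and in the unmarked cells, which hold most cells. These kinds overlap, so the fits are not independent. edgeR called 0 of 80 tested members with age in each, with 1 at an unadjusted p under 0.05 in each, against 2.22% of all genes in HSC-marked and 2.35% in unmarked cells, and DESeq2 called 0 with 2 at an unadjusted p under 0.05, against 1.72% and 2.88% of all genes.

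The other genes of the translation pathway are given beside the 2.03% of all genes called with age, a share at which lists of this size hold few calls or none. edgeR called 0 of 6 ribosomal proteins under other names (median log2 fold change 0.02), 0 of 16 translation factors with TOP mRNAs (-0.20), 0 of 35 ribosome biogenesis genes (-0.12), 0 of 17 ribosome quality and stress genes (-0.02) and 0 of 77 mitochondrial ribosomal proteins (-0.15). Mycn, a transcription factor that drives ribosome biogenesis genes, had the largest value of these lists, 1.01 ± 0.18 (SE, edgeR adjusted p = 0.0695).

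In mitotic-marked cells the mitochondrial ribosomal proteins, which serve the separate ribosome of mitochondria, had 33 of 76 members higher and 4 lower, with a median log2 fold change of 0.24. Mrpl18 rose by 0.90 ± 0.08 (edgeR adjusted p = 5.73e-10) and Mrpl52 fell by 0.51. Over all genes 16.8% were higher and 16% lower. Of 16 translation factors 8 fell, among them the elongation factor Eef2 (-0.48), and 3 rose. Of 35 ribosome biogenesis genes 6 rose and 5 fell, shares near those of all genes, with Mycn at -1.43 ± 0.11 (edgeR adjusted p = 1.22e-11). This list stood apart from all genes in other marked cells. In S-phase-marked cells 28 of 35 rose and 1 fell, against 20.9% and 16.3% of all genes. In HSC-marked cells 1 rose and 24 fell, against 13.9% and 15.6%. The mitochondrial ribosomal proteins stood apart there too. Of 76 tested, 46 rose and 1 fell in S-phase-marked cells, and 1 rose and 38 fell in HSC-marked cells.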

How the data were processed

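The deposited files hold UMI counts per gene and cell, made by the authors with Cell Ranger (2.2.0 per the labels) on mm10, with replicates not pooled further. Which gene annotation they used: not given in the sources used here. Cells were kept when their log UMI count lay within 2 SD of the pool mean, as in the study, and counts were summed per pool. Genes passing filterByExpr were tested with edgeR 4.0.16 (TMM, quasi-likelihood, Benjamini-Hochberg over all genes tested, 0.05), with platform as a block for age and pool for marked cells, in R 4.3.3. Doublets were not called. Shares were compared by exact tests over pools. Pools are separate pools of mice, and the platform letter marks a shared facility and a shared collection batch. Deviations of same-letter pools from their age means correlated at 0.488 over 13555 genes. Scripts were tested on simulated data, where 106 of 108 2-fold changes with age were found among 13496 genes. How many changes of this size the age fit would find in the real pools was not tested. In that fit Rpl6l, at a log2 fold change of 0.98 ± 0.89 (SE, edgeR adjusted p = 0.691), was not called. Copy numbers and coordinates came from GENCODE M21. UMIs limit precision by counting error. Members and lists were chosen with earlier results of these data known. Some genes are not reported here. Genes were named by rule: the 5 highest and 5 lowest, the 8 largest age changes each way, paralogs with partners, the 3 largest called changes per class and direction, and 8 members with special roles. Alternatives were another normalization, filter, tool, block, cell filter, thinning, gate and leaving out each pool. Fits with library sizes over non-member genes used no TMM factors. Age fits that left out a pool had no platform block.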

Additional observations from a re-analysis of the deposited data

Results flagged for a closer look

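The summed member share moved in opposite directions with age on the 2 platforms, by -3.79 percentage points on platform A and by 0.809 on platform B. The difference was not tested, since each platform holds 1 pool per age. Read depth per cell and the number of mice per pool have the same layout over the pools and cannot be told apart from it. The platform B difference was 0.360 points after thinning to 3000 UMIs and 1.17 over all barcodes. Within every marked kind of cell it was negative, with -0.0218 points in HSC-marked cells, and in unmarked cells it was 0.0729 points. The opposite direction was thus seen over all cells and not within marked kinds.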

How the results depend on the processing

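The 4 pools limit every statement, since with 2 per age no exact test can pass 0.05, so these tests say nothing about stability. In the alternatives that kept all 4 pools no member was called with age, with age within HSC-marked and unmarked cells, or with read depth. Read depth was chosen after seeing the data, also as a term for age. These alternatives called 0% to 4.07% of all genes with age in all cells and 0% to 0.0369% with read depth. Where few genes of any kind were called, 0 members says little about stability. Without the replicate block edgeR called 0 members and 0 genes with age, and the age log2 fold changes of Rps28 and Rps26 became -0.19 and -0.050. Without pool as a block 0 members were called in each of the 7 kinds of marked cells. Of all genes, 6.77% were then called in Mitotic-marked, 5.96% in Mast-basophil-marked and 2.91% in S-phase-marked cells. The share was 1.16% in Neutrophil-marked, 1.08% in HSC-marked, 0.246% in Erythroid-marked and 0.210% in Megakaryocyte-marked cells. Causes of these changes were not tested. In the counts below, in either direction, the share of all genes called stands in brackets. With library sizes over non-member genes and no TMM factors 3 of 78 members were called in Erythroid-marked (6.84%) and 5 of 78 in Neutrophil-marked cells (10.3%). The counts were 64 of 78 in Mast-basophil-marked (22.0%), 64 of 78 in S-phase-marked (39.7%) and 58 of 79 in HSC-marked cells (30.9%). With a gate of 2 marker genes 0 of 79 were called in Erythroid-marked (1.10%) and 6 of 78 in Megakaryocyte-marked cells (4.77%). The counts were 0 of 78 in Neutrophil-marked (2.17%) and 1 of 78 in Mast-basophil-marked cells (8.72%). With a gate of 4 the counts were 3 of 78 in Erythroid-marked (18.6%) and 4 of 78 in Neutrophil-marked cells (18.8%), below all genes. They were 30 of 78 in Mast-basophil-marked (17.0%) and 22 of 78 in HSC-marked cells (18.1%). Without thinning 29 of 80 members were called in Erythroid-marked cells (18.8% of all genes) and 13 of 80 in HSC-marked cells (36.8%). The 13 were 10 higher, against 19.1% of all genes, and 3 lower, against 17.8%. With DESeq2 11 of 78 members were called in Megakaryocyte-marked cells (3.55%). The 29 without thinning were 24 lower and 5 higher, against 1 higher and 0 lower with thinning. The Erythroid-marked share difference was -0.47 percentage points without thinning, and Rps27l was -0.011 there with a gate of 2. With a gate of 4 the members of Megakaryocyte-marked cells could not be fitted, with too few cells in a pool. Leaving out each pool gave 1 to 6 members called in Erythroid-marked (3.06% to 5.93% of all genes) and 1 to 28 in Megakaryocyte-marked cells (3.53% to 7.05%). It gave 0 to 5 in Neutrophil-marked (5.62% to 10.8%) and 0 to 12 in Mast-basophil-marked cells (8.8% to 13.6%). It gave 15 to 45 in S-phase-marked (30.0% to 31.6%), 54 to 61 in Mitotic-marked (24.5% to 28.0%) and 18 to 37 in HSC-marked cells (21.7% to 27.8%). The count moved by over 1.5 times in the following fits, each with the share of all genes called. Without aged B it was 6 in Erythroid-marked (5.16%), 1 in Megakaryocyte-marked (3.53%), 5 in Neutrophil-marked (10.8%), 5 in Mast-basophil-marked (13.6%) and 21 in S-phase-marked cells (31.6%). Without aged A it was 5 in Megakaryocyte-marked (4.02%), 3 in Neutrophil-marked (10.8%) and 22 in S-phase-marked cells (31.5%). Without young B it was 0 in Neutrophil-marked (6.19%), 0 in Mast-basophil-marked (10.6%) and 15 in S-phase-marked cells (30.9%). Without young A it was 18 in HSC-marked cells (21.7%). The age difference of the member share ranged over -5.57 to 2.59 percentage points in all cells, -6.21 to 0.86 in Erythroid-marked, -6.01 to 1.54 in Megakaryocyte-marked, -5.86 to 0.86 in S-phase-marked, -5.80 to 0.56 in Mitotic-marked, -6.33 to 1.99 in HSC-marked, -6.37 to 2.01 in unmarked cells, and the sign turned without aged A (in all cells also without young B), while in Neutrophil-marked (-4.30 to -1.77) and Mast-basophil-marked cells (-4.67 to -2.85) it stayed negative. The subunit ratio difference ranged over -0.049 to 0.024 and the Erythroid-marked share difference over -0.16 to 0.35 percentage points. The age fits without 1 pool also had no platform block, so they compared pools across platforms. In them the age log2 fold change turned sign for Rpl6l (-0.26 to 2.28), Rpl10 (-0.15 to 1.54), Rpl27 (-0.71 to 1.40), Rps12 (-0.70 to 1.499), Rpl15 (-0.26 to 0.78), Rps28 (-1.002 to 1.55) and Rps26 (-0.73 to 1.12). It also turned for Rpl23a (-1.51 to 0.14), Rpl30 (-1.15 to 0.26), Rps27 (-1.09 to 0.24), Rpl9 (-1.32 to 0.49), Rps24 (-0.98 to 0.16) and Rpl28 (-0.96 to 0.19).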
